A study of Mus musculus with 8 samples.

Results

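Dendritic cells are specified by a small circuit of transcription factors, and 9 genes of this circuit, *Irf4*, *Irf8*, *Batf3*, *Zbtb46*, *Id2*, *Spib*, *Klf4*, *Bcl6* and *Spi1*, were followed through bone marrow-derived dendritic cell (BMDC) cultures of WT and 3xGrk-/- mice. The genes were taken by name from the 47937 genes of the count tables, and all 9 passed the filter on low counts in every comparison. The cultures were grown from bone marrow in GM-CSF for 8 days and then left unstimulated or stimulated for 24 h with 20 ng/ml LPS, a bacterial lipopolysaccharide that triggers maturation through TLR4. WT cultures served as controls. In 3xGrk-/- cells the genes of the G-protein coupled receptor kinases GRK2, GRK3 and GRK6 are targeted, and per the study's description the cells derive from C57BL6/J mice with Vav-iCre, which acts in early hematopoietic precursors, Grk2 fl/fl, Grk3-/- and Grk6 fl/fl. The 4 groups, unstimulated WT, unstimulated 3xGrk-/-, LPS-stimulated WT and LPS-stimulated 3xGrk-/-, hold 2 mRNA-seq libraries each. The study's methods speak of technical triplicates, which does not match the 2 libraries per group analysed here, and do not say that the libraries of a group come from separate mice or cultures, so the p-values measure only the spread between these libraries.

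PU.1, the product of *Spi1*, is an ETS-family factor that opens chromatin in all myeloid cells, and Spi-B, the product of *Spib*, is its close relative and is best known from plasmacytoid dendritic cells (pDCs). ID2 sequesters E proteins such as E2-2 and thereby favours conventional dendritic cells (cDCs) over pDCs, and BCL6 is a zinc-finger repressor that cDC1s require. IRF8 and its AP-1 partner BATF3 specify cDC1s, the cross-presenting subset, whereas IRF4 and KLF4 act in cDC2s and, for KLF4, in monocytes. ZBTB46 is a repressor whose expression separates cDCs from macrophages. IRF4 and IRF8 bind DNA weakly alone and gain affinity by pairing with PU.1, Spi-B or BATF factors on composite sites.

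Each library held between 4713305 and 6933358 counts on genes, with a median of 6228400. The 3 targeted genes were lower in every 3xGrk-/- library than in every WT library of the same stimulation: *Grk2* reached 46.4% of the WT level without and 27.0% with LPS, *Grk6* 43.9% and 34.4%, and *Grk3* 78.1% and 75.0%. Transcripts of all 3 genes were thus still counted, and since the counts cover whole genes, reads from outside a deleted part cannot be told apart from intact transcripts. The defining markers of cDCs were present, and none of the 10 was at 0 in any group. *Cd74*, *H2-Aa*, *H2-Ab1*, *H2-Eb1*, *Dpp4* and *Kmo* were called lower in 3xGrk-/- cells in both stimulations. *Itgax* and *Flt3* were called higher in both, *Ccr7* higher without and lower with LPS, and *Cd86* lower with LPS only. *Cd74* and the *H2* genes made up most of the summed level of the 10. This summed level, in counts scaled to the size of the library (CPM), was 25608 to 25873 in unstimulated WT, 13310 to 13605 in unstimulated 3xGrk-/-, 17919 to 19499 in LPS-stimulated WT and 15011 to 15230 in LPS-stimulated 3xGrk-/- libraries. The 14 monocyte and macrophage markers summed to 1167 to 1194, 1684 to 1736, 469.8 to 482 and 2679 to 2714 CPM in the same order, also with none at 0. Markers of eosinophils moved the other way, from 927 to 985 CPM in unstimulated and 913 to 984 CPM in LPS-stimulated WT to 54.4 to 57.9 and 36.5 to 42.9 CPM in 3xGrk-/- libraries. The summed neutrophil markers were at 807 to 848 and 359.98 to 417 CPM in WT against 1262 to 1291 and 548 to 569.8 CPM in 3xGrk-/- libraries, a rise carried by *Mmp8* alone, which went from 105 to 750.1 CPM without and from 25.3 to 365 CPM with LPS. Of the other neutrophil markers none was called higher, against 22.1% of all genes without and 24.7% with LPS. Called lower were 5 of them without and 6 with LPS, against 22.7% and 24% of all genes, *S100a8* going from 256 to 193 and from 106 to 57.3 CPM. Mast cell and basophil markers summed to 48.7 to 52.3 CPM in WT and 63.9 to 70.5 CPM in 3xGrk-/- libraries without LPS and to 97.4 to 101 and 287 to 293 CPM with LPS, of which *Hdc* made up 55.7 and 257 CPM. Of the 6 tested, *Hdc* was higher in both stimulations, *Gata2* was higher without LPS, from 7.81 to 21.2 CPM, and 3 were lower in either stimulation. Of all genes 44.7% were called without and 48.6% with LPS. Markers of pDCs, nearly all from *Pacsin1*, summed to 47.1 to 55.8 CPM in WT against 28.8 to 29.6 CPM in 3xGrk-/- libraries without LPS and to 26.8 to 28.7 against 7.62 to 11.5 CPM with LPS. Those of B cells, T and NK cells, erythroid and stromal cells summed to at most 24.5 CPM in any library. GM-CSF cultures hold dendritic cells beside macrophage-like cells, and in these bulk samples fewer cells of a type and less RNA per cell cannot be told apart. The part that these other cell types have in the results on the 9 factors was not tested.

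The levels of the 9 factors differed widely within a library. Per kilobase of exon (RPKM, the CPM divided by the length of the merged exons), unstimulated WT cells ranked *Id2* first, with 183 ± 9.0 RPKM (SD, n = 2), followed by *Spi1*, *Irf4*, *Batf3*, *Irf8*, *Spib*, *Zbtb46*, *Bcl6* and, last, *Klf4* with 7.72 ± 0.25 RPKM. In unstimulated 3xGrk-/- cells *Irf8* passed *Irf4* and *Batf3* to rank 3, at 71.9 against 55.8 and 49.3 RPKM, and the other factors stayed in their order. With LPS, *Irf8* stood directly behind *Id2* in both genotypes, at 209 RPKM in WT and 139 RPKM in 3xGrk-/- cells. *Spi1*, at rank 2 without LPS, was at rank 5 in LPS-stimulated WT and at rank 3 in LPS-stimulated 3xGrk-/- cells, and *Irf4* was at ranks 4 and 5. The libraries of neighbours in these orders overlapped in only 2 cases of the 4 groups, *Spib* with *Klf4* in LPS-stimulated WT and *Bcl6* with *Spib* in LPS-stimulated 3xGrk-/- cells. In unstimulated WT the RPKM of *Id2* exceeded that of 98.4% of the tested genes and that of *Klf4* 57.8%, whereas in LPS-stimulated WT *Spib* exceeded 26.1% and *Klf4* 19.4%.

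**Figure D1:**
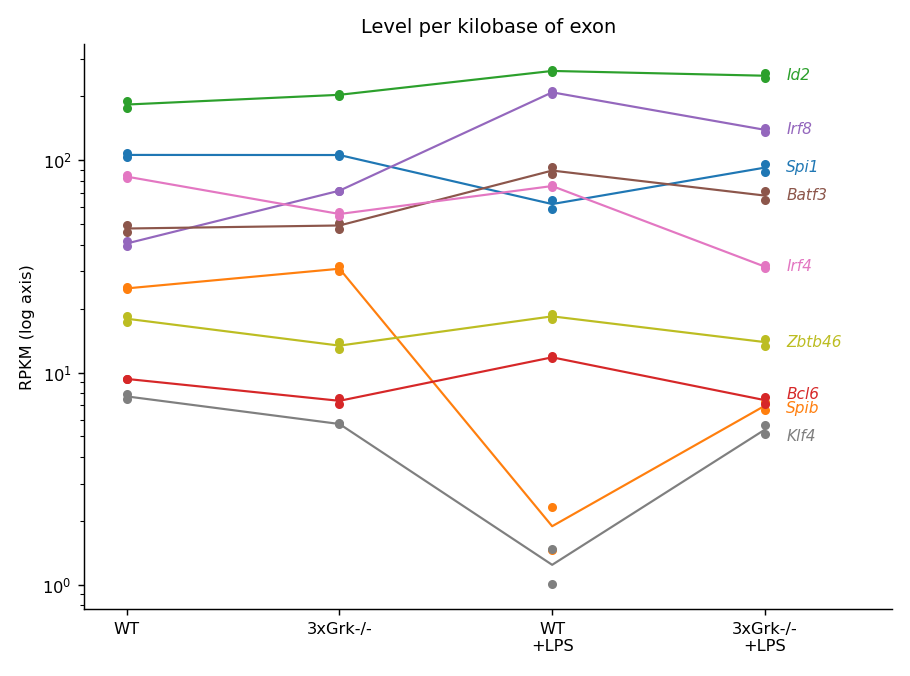
RPKM (log axis) of the 9 factors in the 4 groups, with a point for each library and a line through the group means of each gene. *Id2* leads in all groups, *Irf8* climbs to rank 2 with LPS, and *Spib* and *Klf4* drop to 1.89 and 1.24 RPKM in LPS-stimulated WT cells but stand at 6.97 and 5.38 RPKM in LPS-stimulated 3xGrk-/- cells.

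Promoters are shown for *Irf8* and *Spib*, which of the 9 factors rose and fell most with LPS in WT cells, and for *Bcl6*, picked from the factors that rose because its window holds the letters marked. Each sequence is the 250 bases before a RefSeq start site on GRCm38.p6, read on the gene's strand from 5′ to 3′, with matches to TTCNNNGAA in capitals. These letters are the core of the GAS element, to which STAT proteins bind.
Irf8, chr8:120736108-120736357, plus strand: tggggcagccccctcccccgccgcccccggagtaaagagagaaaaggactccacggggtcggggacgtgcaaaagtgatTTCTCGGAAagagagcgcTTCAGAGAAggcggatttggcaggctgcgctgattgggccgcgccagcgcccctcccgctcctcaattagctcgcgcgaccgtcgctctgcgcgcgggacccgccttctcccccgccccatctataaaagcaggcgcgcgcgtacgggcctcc
Bcl6, chr16:23988853-23989102, minus strand: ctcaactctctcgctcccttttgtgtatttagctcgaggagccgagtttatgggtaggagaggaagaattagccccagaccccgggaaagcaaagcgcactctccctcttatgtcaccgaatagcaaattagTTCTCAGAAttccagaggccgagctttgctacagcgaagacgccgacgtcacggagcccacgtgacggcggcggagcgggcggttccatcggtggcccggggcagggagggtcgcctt
Spib, chr7:44532072-44532321, minus strand: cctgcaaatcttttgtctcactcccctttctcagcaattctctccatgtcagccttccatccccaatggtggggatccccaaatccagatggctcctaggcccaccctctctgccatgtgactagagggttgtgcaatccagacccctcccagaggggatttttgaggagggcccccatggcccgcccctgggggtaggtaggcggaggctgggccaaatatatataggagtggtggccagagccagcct

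The *Irf8* window held the GAS letters at 171 to 163 and at 153 to 145 bases before the start, and the first of these matches ends in GGAA, the core that ETS factors recognise. The *Bcl6* window held them at 118 to 110 bases before the start. A window was found for 8 of the 9 factors, all but *Spi1*, and *Batf3* had the letters too, as TTCCACGAA at 239 to 231 bases before its start, whereas the windows of *Irf4*, *Zbtb46*, *Id2*, *Spib* and *Klf4* held none. Yet *Id2* rose more with LPS in WT cells than *Bcl6*, by 0.52 against 0.34 on the log2 scale. A second, downstream start of *Bcl6* had 3 matches and a second start of *Irf8* none. Over all 32851 windows of 27025 genes, 7.02% held the letters. Of the other motifs searched on both strands, the AP-1 site TGANTCA (6.75% of all windows) was found in the *Zbtb46* window, as TGACTCA at 61 to 55 bases before its start, and the composite ETS and IRF core GGAANNGAA (6.99%) and the interferon response core GAANNGAAA (6.31%), which overlap each other, at the second *Bcl6* start. The PU.1 box GAGGAAGT (2.44%) and the kappa B core GGANNTTCC (3.59%) were in none of the factors' windows, and GGAA alone was in 93.4% of all windows. The *Zbtb46* window (chr2:181424389-181424638, minus strand) precedes an internal start that lies far downstream of the 5′ end of the annotated gene, so the region before that 5′ end was not searched, and the windows of *Batf3* and *Id2* also lie inside the annotated gene. A match describes these letters in this window and is no evidence of binding.

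In unstimulated 3xGrk-/- cells *Irf4*, *Zbtb46*, *Klf4* and *Bcl6* were lower and *Irf8*, *Spib* and *Id2* were higher than in WT cells, while *Spi1* and *Batf3* were not called. Of the 9 factors, 7 were called, 3 higher and 4 lower in 3xGrk-/- cells, where a call is an adjusted p below 0.05 (edgeR's quasi-likelihood F test, p-values adjusted after Benjamini and Hochberg over all genes). Over all 12000 genes tested, 44.7% were called, 22.1% higher and 22.7% lower. The libraries of the genotypes did not overlap for 7 factors, and for 69.1% of all genes. The median size of the change was 0.35 on the log2 scale over the 9 factors and 0.24 over all genes. The libraries of a genotype lay close together: the biological coefficient of variation (BCV), the relative spread of a gene beyond counting noise, was 0.0306 in unstimulated and 0.0573 in LPS-stimulated cells. With a BCV of 0.4 set for every gene, edgeR's likelihood ratio test called 0 of the 9 factors, with 0 at an unadjusted p under 0.05, whereas DESeq2 called 6. An exact permutation test of 2 libraries against 2 cannot give a two-sided p below 0.333.

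In LPS-stimulated cells 8 of the 9 factors were called, *Klf4*, *Spib* and *Spi1* higher and *Irf4*, *Bcl6*, *Irf8*, *Zbtb46* and *Batf3* lower in 3xGrk-/- cells, against 48.6% of the 11830 genes tested, 24.7% higher and 24% lower. The libraries of the genotypes did not overlap for all 9 factors, and for 72.6% of all genes. The median size of the change was 0.59 on the log2 scale against 0.33 over all genes. With a BCV of 0.4 for every gene, *Klf4* and *Spib* were still called in edgeR's likelihood ratio test, at adjusted p = 0.018 and 0.042. The genotype effect itself differed between the stimulations for 8 factors, all but *Zbtb46*, by the interaction term of a fit to all 8 libraries. The effect was higher with LPS for *Klf4*, *Spib* and *Spi1* and lower for *Irf8*, *Irf4*, *Batf3*, *Bcl6* and *Id2*, against 32.5% of 12541 genes called, 16.5% higher and 16% lower. With a BCV of 0.4 the interaction was called for 0 factors, with 1, *Klf4*, at an unadjusted p under 0.05, and DESeq2 called 7.

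**Figure D2:**
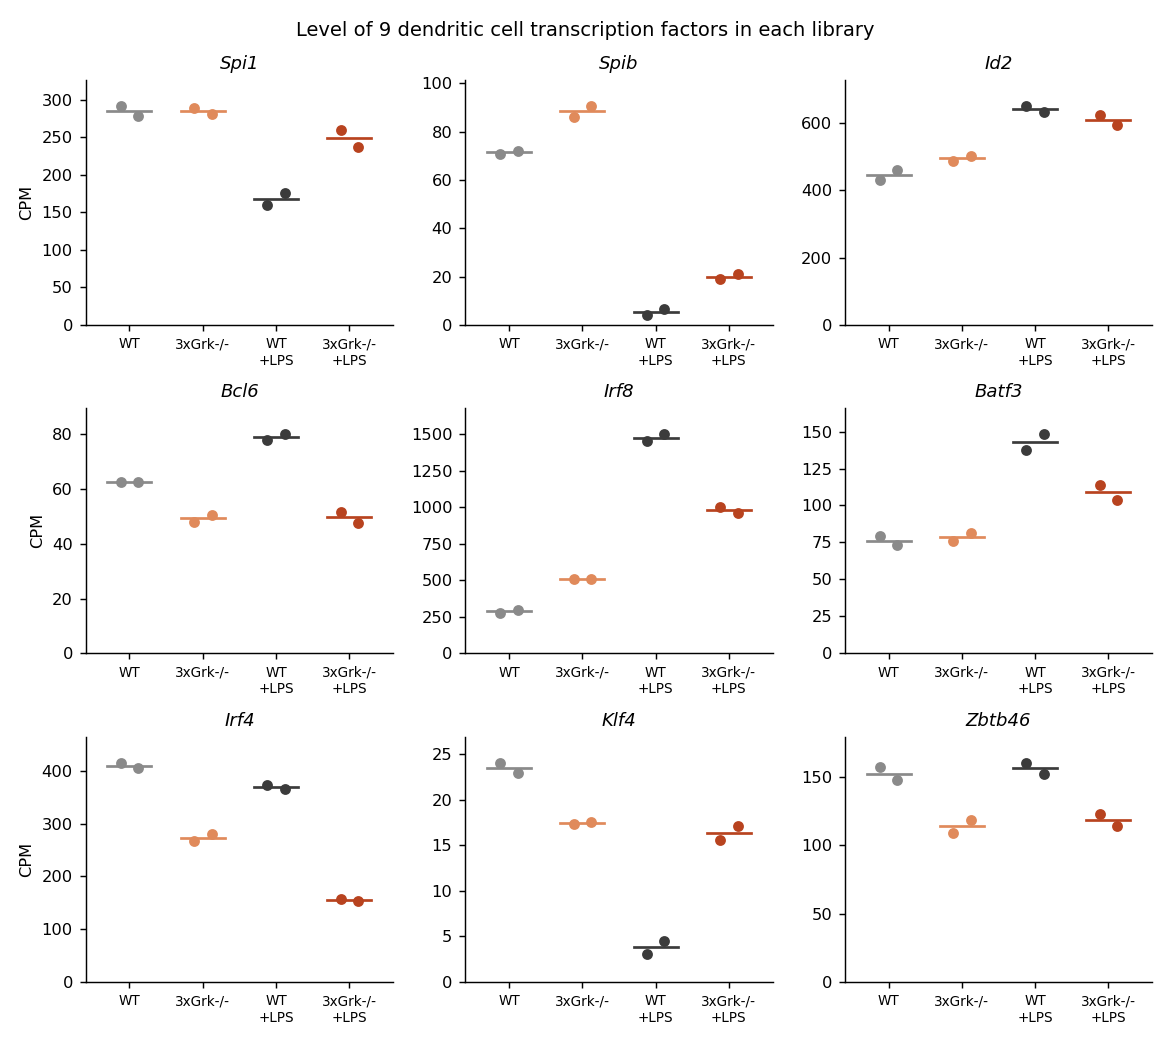
CPM of each factor in each of the 8 libraries (points), with the group mean (line), on axes that start at 0. *Irf4* is lowest in LPS-stimulated 3xGrk-/- cells, *Irf8* is higher in 3xGrk-/- cells without and lower with LPS, and *Spib* and *Klf4* are lowest in LPS-stimulated WT cells.

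*Spi1* (ENSMUSG00000002111.8, chr2:91082390-91115756) had 292 and 279 CPM in the WT and 289 and 281 CPM in the 3xGrk-/- libraries without LPS. These 4 libraries overlapped, and the difference was 0.0008 ± 0.045 on the log2 scale (SE, edgeR adjusted p = 0.99). With LPS the WT libraries fell to 159 and 176 CPM, and the 3xGrk-/- libraries stood at 259.8 and 238 CPM. All stimulated 3xGrk-/- libraries were above the stimulated WT libraries, by 0.57 ± 0.07 (edgeR adjusted p = 6.60e-07), which is 1.48-fold. From unstimulated to stimulated, WT cells changed by -0.77 ± 0.06 (edgeR adjusted p = 8.74e-12) and 3xGrk-/- cells by -0.20 ± 0.06 (edgeR adjusted p = 0.00536). Without replicate 2 of the LPS-stimulated 3xGrk-/- cells the latter was -0.13 and without replicate 1 of the unstimulated 3xGrk-/- cells -0.17, and neither was called, with edgeR adjusted p = 0.160 and 0.0690.

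*Spib* (ENSMUSG00000008193.13, chr7:44525993-44532071, the promoter without GAS letters above) fell most with LPS. It had 70.7 and 72.2 CPM in unstimulated WT cells, 86.2 and 90.6 CPM in unstimulated 3xGrk-/-, 4.17 and 6.65 CPM in LPS-stimulated WT and 19.1 and 20.9 CPM in LPS-stimulated 3xGrk-/- libraries. The groups did not overlap. 3xGrk-/- cells were higher by 0.30 ± 0.07 without LPS (edgeR adjusted p = 0.000112) and by 1.86 ± 0.21 with LPS (edgeR adjusted p = 1.47e-07), the latter being 3.64-fold. The counts behind the stimulated WT values were 23 and 43, so counting error weighs more there than for the other factors apart from *Klf4*. The LPS response was -3.70 ± 0.14 in WT and -2.14 ± 0.11 in 3xGrk-/- cells (edgeR adjusted p = 8.94e-19 and 3.63e-16), and 2.34% of all genes moved further in WT. Within a library, *Spib* stood at 0.228 to 0.243 of the *Spi1* level per length in unstimulated WT and at 0.280 to 0.303 in unstimulated 3xGrk-/- cells. With LPS this ratio was 0.0246 to 0.0356 in WT and 0.0690 to 0.0826 in 3xGrk-/- cells, and the ranges of the 4 groups did not overlap.

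*Id2* (ENSMUSG00000020644.8, chr12:25093799-25097140) differed little between the genotypes. It had 431 and 462 CPM in unstimulated WT cells, 489 and 503 CPM in unstimulated 3xGrk-/-, 651 and 634 CPM in LPS-stimulated WT and 625 and 595 CPM in LPS-stimulated 3xGrk-/- libraries. The genotypes did not overlap in either stimulation, but the difference was small, 0.15 ± 0.04 without LPS (edgeR adjusted p = 0.000569) and -0.08 ± 0.06 with LPS (edgeR adjusted p = 0.297). Without replicate 1 of unstimulated WT the first was 0.10 and lost its call (edgeR adjusted p = 0.0709), and with library sizes as the scaling it was 0.06 (edgeR adjusted p = 0.183). LPS raised *Id2* by 0.52 ± 0.05 in WT and by 0.30 ± 0.05 in 3xGrk-/- cells (edgeR adjusted p = 5.40e-10 and 1.17e-05), the latter being 0.08 and not called with library sizes (edgeR adjusted p = 0.185). The difference between these responses was small, -0.23 ± 0.07 (edgeR adjusted p = 0.0152), and ranged from -0.26 to -0.16 with a library left out.

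*Bcl6* (ENSMUSG00000022508.5, chr16:23965052-23988852) was lower in 3xGrk-/- cells in both stimulations. It had 62.5 and 62.5 CPM in unstimulated WT cells, 47.9 and 50.7 CPM in unstimulated 3xGrk-/-, 78.0 and 79.99 CPM in LPS-stimulated WT and 51.6 and 47.7 CPM in LPS-stimulated 3xGrk-/- libraries. Both genotype differences were without overlap, -0.35 ± 0.09 without and -0.67 ± 0.09 with LPS (edgeR adjusted p = 0.000192 and 3.54e-06). The LPS response was 0.34 ± 0.08 in WT (edgeR adjusted p = 0.000615), or 0.12 and not called with library sizes as the scaling (edgeR adjusted p = 0.190), and 0.01 ± 0.09 in 3xGrk-/- cells, whose stimulated and unstimulated libraries overlapped (edgeR adjusted p = 0.933). The difference between these responses, -0.33 ± 0.12 (edgeR adjusted p = 0.0361), was lost in DESeq2 (adjusted p = 0.211) and when any of 6 of the 8 libraries was left out, with edgeR adjusted p of up to 0.172.

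*Irf8* (ENSMUSG00000041515.9, chr8:120736358-120756694, the promoter with both GAS matches above) had the strongest rise with LPS of the 9 factors. It had 278 and 294 CPM in unstimulated WT cells, 507 and 507 CPM in unstimulated 3xGrk-/-, 1450.1 and 1498 CPM in LPS-stimulated WT and 999 and 963 CPM in LPS-stimulated 3xGrk-/- libraries. The 3xGrk-/- libraries thus lay above WT without LPS and below WT with LPS, with no overlap in either case. The differences were 0.82 ± 0.04 (edgeR adjusted p = 1.62e-84), 1.77-fold, and -0.59 ± 0.05 (edgeR adjusted p = 7.56e-09), 0.665-fold. The LPS response was 2.36 ± 0.05 in WT and 0.95 ± 0.05 in 3xGrk-/- cells (edgeR adjusted p = 6.85e-25 and 3.00e-16), and the difference between the genotype effects was -1.41 ± 0.07 (edgeR adjusted p = 1.01e-15). Of all genes, 9.35% had a larger interaction. Apart from *Irf8*, only *Klf4* among the 9 factors was called in opposite directions without and with LPS.

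*Batf3* (ENSMUSG00000026630.9, chr1:191097847-191108945), the partner of IRF8 in cDC1s, had 79.3 and 73.0 CPM in WT against 76.1 and 81.3 CPM in 3xGrk-/- libraries without LPS. These overlapped, with a difference of 0.05 ± 0.07 (edgeR adjusted p = 0.606). It rose to 138 and 148 CPM in LPS-stimulated WT and to 114 and 104 CPM in LPS-stimulated 3xGrk-/- libraries, a difference of -0.39 ± 0.08 on the log2 scale (edgeR adjusted p = 0.000189). With stimulation *Batf3* changed by 0.91 ± 0.07 in WT and 0.47 ± 0.08 in 3xGrk-/- cells (edgeR adjusted p = 1.49e-11 and 6.49e-06). *Batf3* and *Irf8* both rose with LPS in both genotypes and rose less in 3xGrk-/- cells, where the interaction of *Batf3* was -0.45 ± 0.11 (edgeR adjusted p = 0.00157).

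*Irf4* (ENSMUSG00000021356.9, chr13:30749226-30766976) was lower in 3xGrk-/- cells in both stimulations. It had 416 and 405 CPM in unstimulated WT cells, 267 and 281 CPM in unstimulated 3xGrk-/-, 374 and 367 CPM in LPS-stimulated WT and 157 and 153 CPM in LPS-stimulated 3xGrk-/- libraries. No groups overlapped. The difference was -0.59 ± 0.04 without LPS (edgeR adjusted p = 6.01e-41) and -1.26 ± 0.06 with LPS (edgeR adjusted p = 3.38e-13), 0.666-fold and 0.417-fold of WT. The LPS response was -0.15 ± 0.05 in WT (edgeR adjusted p = 0.0156) and -0.82 ± 0.06 in 3xGrk-/- cells (edgeR adjusted p = 3.82e-13), and the WT value was not called in DESeq2 (adjusted p = 0.0616) or without replicate 1 of unstimulated WT (edgeR adjusted p = 0.0905).

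The ratio of *Irf4* to *Irf8*, whose products act in cDC2s and cDC1s, shifted with genotype and with LPS. In these bulk samples it is a ratio of transcripts and no count of cDC2s and cDC1s. Per length, *Irf4* stood at 1.98 to 2.15 times *Irf8* in unstimulated WT libraries and at 0.757 to 0.796 times in unstimulated 3xGrk-/- libraries. With LPS the ratio was 0.352 to 0.372 in WT and 0.226 to 0.228 in 3xGrk-/- libraries. The 4 ranges did not overlap, and since both values come from the same library, its scaling drops out of the ratio. The mean ratio of 3xGrk-/- was 0.376 of WT without and 0.626 of WT with LPS.

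*Klf4* (ENSMUSG00000003032.8, chr4:55527143-55532466) showed the largest interaction of the 9 factors. It had 24.1 and 23.0 CPM in unstimulated WT cells, 17.4 and 17.5 CPM in unstimulated 3xGrk-/-, 3.08 and 4.49 CPM in LPS-stimulated WT and 15.6 and 17.2 CPM in LPS-stimulated 3xGrk-/- libraries. Stimulated WT cells stood apart from the other 3 groups. The genotype difference was -0.43 ± 0.14 without LPS (edgeR adjusted p = 0.00529), not called in DESeq2 (adjusted p = 0.160), and 2.1 ± 0.23 with LPS (edgeR adjusted p = 1.05e-07), 4.29-fold. The stimulated WT libraries rest on 17 and 29 counts. LPS changed *Klf4* by -2.61 ± 0.19 in WT (edgeR adjusted p = 1.37e-12) and by -0.08 ± 0.15 in 3xGrk-/- cells (edgeR adjusted p = 0.648), and the interaction was 2.53 ± 0.25 (edgeR adjusted p = 3.35e-09), exceeded by 3.00% of all genes. Relative to *Irf4* per length, *Klf4* stood at 0.0912 to 0.0931 in unstimulated WT, 0.101 to 0.105 in unstimulated 3xGrk-/-, 0.0132 to 0.0197 in LPS-stimulated WT and 0.160 to 0.181 in LPS-stimulated 3xGrk-/- libraries.

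**Figure D3:**
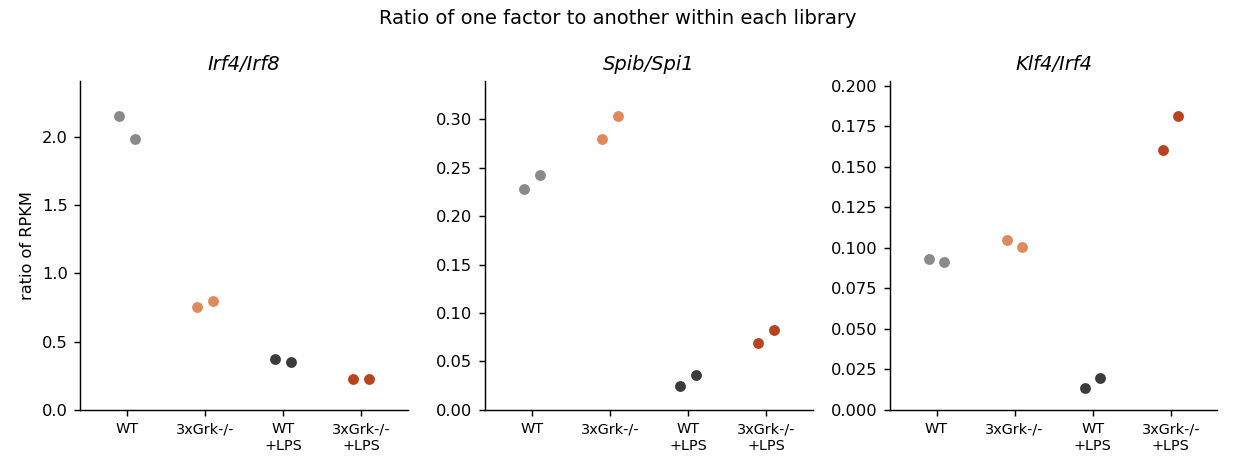
Ratios of RPKM within each library (points, 2 per group) on axes that start at 0, for *Irf4* to *Irf8*, *Spib* to *Spi1* and *Klf4* to *Irf4*. The first ratio falls from about 2.07 in unstimulated WT to 0.227 in LPS-stimulated 3xGrk-/- cells, and the third is highest in LPS-stimulated 3xGrk-/- cells, at 0.171 on average.

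*Zbtb46* (ENSMUSG00000027583.13, chr2:181387762-181459426) differed by genotype and not detectably by stimulation. It had 157 and 148 CPM in unstimulated WT cells, 109 and 118 CPM in unstimulated 3xGrk-/-, 160.4 and 153 CPM in LPS-stimulated WT and 123 and 114 CPM in LPS-stimulated 3xGrk-/- libraries. The genotypes did not overlap, while stimulated and unstimulated libraries of a genotype did. The genotype differences were -0.42 ± 0.06 and -0.40 ± 0.07 (edgeR adjusted p = 2.42e-12 and 0.000105), and their difference was 0.02 ± 0.09 (edgeR adjusted p = 0.920). The LPS response was 0.04 ± 0.06 in WT and 0.06 ± 0.07 in 3xGrk-/- cells (edgeR adjusted p = 0.623 and 0.513). With library sizes as the scaling the WT response was -0.18 (edgeR adjusted p = 0.0234), in a fit where the median of all genes shifted from -0.015 to -0.23.

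Across the factors, the responses to LPS were called for 8 of 9 in WT cells, 4 higher and 4 lower, against 60.3% of the 12541 genes tested, 29.5% higher and 30.8% lower. In 3xGrk-/- cells 6 of 9 were called, 3 higher and 3 lower, against 55.4% of all genes, 28% higher and 27.4% lower. The median size of the response was 0.77 on the log2 scale in WT and 0.30 in 3xGrk-/- cells, where the medians over all genes were 0.45 and 0.39. The WT response of 7 of the 9 factors was the larger one in size, the exceptions being *Irf4*, which fell more in 3xGrk-/- cells, and *Zbtb46*. Unstimulated and LPS-stimulated libraries were deposited in separate tables, and the sources used here do not say whether they were sequenced in 1 run, so that a difference between runs and the response to LPS cannot be told apart.

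The genes whose pattern over the 8 libraries was most like that of a factor were found by the root mean square difference of log2 CPM, each gene centred on its own mean, among 9143 genes. *Irf4* was followed most closely by *Cdc14a* (0.0760) and *Sesn2* (0.0781), *Irf8* by *S1pr3* (0.151) and *Ccnd2* (0.152), and *Batf3* by *H2afy* (0.050) and *Slc9a3r1* (0.0620). *Spib* was nearest to *Tifab* (0.129) and to *Itgax* (0.229), which encodes the dendritic cell integrin CD11c and stood at 947, 1083, 67.0 and 340.1 CPM in unstimulated WT cells, unstimulated 3xGrk-/-, LPS-stimulated WT and LPS-stimulated 3xGrk-/- cells. *Klf4* was nearest to *Igsf8* (0.146) and *Pld4* (0.176). *Spi1* was nearest to *Laptm5* (0.0528) and *Rpn2* (0.0633), *Id2* to *Stx7* (0.0269) and *Parp4* (0.0402), *Bcl6* to *Uqcrh* (0.0471) and *Mthfsd* (0.0486), and *Zbtb46* to *Sat1* (0.0564) and *Rbmx2* (0.0575). The factors themselves varied about their mean by between 0.213 for *Zbtb46* and 1.60 for *Spib*, so a small distance means less for the flat profiles.

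Of 33 relatives and partners of the factors, among them other IRF, BATF, JUN, ETS, ID, E protein and KLF genes, 31 were tested. In unstimulated cells 10 were higher and 4 lower in 3xGrk-/- cells, so that 14 of 31 were called against 44.7% of all genes, with a median of 0.14 on the log2 scale against -0.0017 over all genes. *Id3*, the sister gene of *Id2*, differed by -3.75 ± 0.29, from 15.3 to 1.11 CPM, and *Spic*, an ETS gene related to *Spib*, by -1.25 ± 0.28 (edgeR adjusted p = 8.01e-38 and 3.14e-05). *Klf10* was higher by 1.0 ± 0.14 and *Irf7*, the regulator of type I interferon genes, by 0.89 ± 0.18 (edgeR adjusted p = 1.03e-12 and 2.02e-06). Under LPS the numbers were 10 higher and 5 lower, 15 of 31 against 48.6% of all genes, at a median of 0.09. Both shares lie near the background and are no result about these relatives. *Klf10* then differed by 2.91 ± 0.20, *Spic* by 1.66 ± 0.18 and *Irf7* by 1.42 ± 0.06, whereas *Klf2* differed by -1.22 ± 0.38 (edgeR adjusted p = 7.45e-11, 1.55e-07, 1.49e-14 and 0.0112). *Spic* thus had the opposite sign in the stimulations, with an interaction of 2.91 ± 0.31 (edgeR adjusted p = 1.66e-08), and in total 9 relatives had a higher and 7 a lower genotype effect with LPS, against 16.5% and 16% of all genes.

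Of 25 other regulators of dendritic cell and myeloid development, 23 were tested in each stimulation. Without LPS 8 were higher and 10 lower in 3xGrk-/- cells (median -0.09 on the log2 scale), 18 of 23 against 44.7% of all genes. With LPS 6 were higher and 14 lower (median -0.23, against -0.0067 over all genes), 20 of 23 against 48.6%. *Cebpb*, a regulator of monocytes and macrophages, was higher by 2.47 ± 0.10 without and by 3.08 ± 0.14 with LPS (edgeR adjusted p = 9.48e-143 and 7.10e-14), its level being 19.4 and 20.6 CPM in WT and 102 and 175 CPM in 3xGrk-/- cells. *Zeb2* was higher by 1.05 ± 0.07 and 1.66 ± 0.09 (edgeR adjusted p = 6.55e-56 and 1.82e-12). Among the genes that were lower, *Ikzf3* had no more than 3 counts in either unstimulated 3xGrk-/- library and was at least 5.24-fold lower against a floor of 3 counts per library, and with LPS it differed by -2.24 ± 0.63. *Bcl11a*, required for pDCs, differed by -1.93 ± 0.47 without LPS and *Gfi1*, a repressor active in granulocyte precursors, by -2.04 ± 0.48 with LPS (edgeR adjusted p = 0.000127 and 0.00129).

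The genes known to mark the dendritic cell subsets were followed as lists. Of 15 cDC1 genes, 11 were tested without LPS, of which 2 were higher and 8 lower in 3xGrk-/- cells (median -1.65 on the log2 scale), against 22.1% of all genes higher and 22.7% lower. *Cd207*, which encodes langerin, was at least 21-fold lower against the floor, *Sept3* differed by -4.19 ± 0.15 and *Ifi205* by -2.59 ± 0.23, and *Cd8a* by -2.26 ± 0.49 (edgeR adjusted p = 1.06e-31, 3.43e-168, 4.46e-27 and 1.96e-05). The 2 higher genes were *Rab7b*, by 2.08 ± 0.13, and *Clec9a*, by 1.35 ± 0.35, from 1.62 to 4.40 CPM (edgeR adjusted p = 7.81e-52 and 0.000462). In the same comparison *Irf8*, the factor of cDC1s, was higher and *Batf3* was not called. With LPS 7 cDC1 genes were tested, 4 higher and 3 lower (median 0.44), against 24.7% and 24% of all genes, with *Rab7b* higher by 4.34 ± 0.19, *Tlr3* by 2.76 ± 0.23 and *Ifi205* by 2.43 ± 0.08 and *Cd8a* at least 5.74-fold lower (edgeR adjusted p = 4.46e-14, 1.90e-09, 1.58e-16 and 2.56e-05). The interaction was called for 8 of the 11, all with a higher genotype effect in LPS-stimulated cells, against 16.5% of all genes higher and 16% lower. Among these are *Sept3* and *Itgae*, which were not tested between the genotypes with LPS. Neither LPS-stimulated WT library had more than 3 counts for either gene.

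Of 15 cDC2 genes, 14 were tested without LPS, 5 higher and 8 lower in 3xGrk-/- cells (median -1.04 on the log2 scale), against 22.1% and 22.7% of all genes. *Cd209a*, which encodes DC-SIGN, was at least 28.8-fold lower against the floor, *Epcam* differed by -3.82 ± 0.27, *Clec4a4* by -2.46 ± 0.40 and *Mgl2* by -2.31 ± 0.04, from 826 to 167 CPM (edgeR adjusted p = 7.11e-45, 2.48e-45 and 7.26e-09 for the first 3). With LPS 12 were tested, 5 higher and 5 lower (median 0.28), against 24.7% and 24% of all genes. The summed level of the 15 genes went the other way from these medians, with 10566 to 10637 CPM in WT against 13852 to 13980 CPM in 3xGrk-/- libraries without LPS and 26057 to 27082 against 14197 to 14311 CPM with LPS. Most of this sum was the chemokine gene *Ccl22*, at 6023 and 10744 CPM in unstimulated WT and 3xGrk-/- cells and at 23175 and 11017 CPM with LPS. *Clec4a2* was higher by 2.30 ± 0.17 and *Itgam*, which encodes the integrin CD11b of cDC2s and of macrophages, by 2.1 ± 0.08, whereas *Ltb* differed by -2.28 ± 0.47 and the chemokine gene *Ccl17* by -1.69 ± 0.06 (edgeR adjusted p = 3.69e-10, 4.42e-15, 0.000358 and 7.60e-16).

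Of 12 pDC genes, only 6 passed the filter without LPS and 4 with LPS, and between 2 and 4 of the 12 were at 0 in each group. The count of called genes was 2 higher and 4 lower without LPS and 2 higher and 1 lower with LPS, against 44.7% and 48.6% of all genes called, and *Spib*, itself on this list, was among the higher ones both times. *Cd300c* differed by -4.08 ± 0.35 and *Lag3* by -1.31 ± 0.40 without LPS (edgeR adjusted p = 1.02e-29 and 0.00292). *Pacsin1* differed by -0.80 ± 0.10 without and by -1.81 ± 0.19 with LPS (edgeR adjusted p = 4.00e-14 and 6.08e-08). *Bst2*, an interferon-inducible gene, is not restricted to pDCs once interferon is present. It differed by -0.34 ± 0.06 without LPS and was higher by 1.25 ± 0.06 with LPS (edgeR adjusted p = 4.48e-07 and 3.30e-13).

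The 18 genes described as targets of PU.1 in myeloid cells were all tested. In 3xGrk-/- cells 14 were higher and 4 lower without LPS and 15 higher and 3 lower with LPS, with medians of 0.83 and 1.55 on the log2 scale, where 22.1% of all genes were higher and 22.7% lower without LPS and 24.7% and 24% with LPS. *Spi1* itself differed by 0.0008 and 0.57. *Lyz2*, the lysozyme of macrophages and granulocytes, stood at 1330.3 and 7080.5 CPM in unstimulated WT and 3xGrk-/- cells, and at 286 and 4586 CPM with LPS, differences of 2.41 ± 0.03 and 4.0 ± 0.06. *Fcgr1*, which encodes the Fc receptor CD64, was higher by 3.92 ± 0.08, *Csf1r*, the receptor of M-CSF, by 3.15 ± 0.07 and *Cd14* by 2.51 ± 0.07 with LPS (edgeR adjusted p = 3.96e-19, 4.12e-19 and 4.49e-17). *Fcgr2b* and *Itgam* were higher by 1.68 ± 0.05 and 1.56 ± 0.05 without LPS. Without LPS *Fcgr1* had the opposite sign, at -0.64 ± 0.12 (edgeR adjusted p = 2.14e-07), and *Ciita*, the coactivator of MHC class II genes, was lower in both stimulations, at -1.44 ± 0.04 without and -0.77 ± 0.07 with LPS (edgeR adjusted p = 8.02e-234 and 1.05e-08). Many of these targets are macrophage genes, and the summed macrophage markers given above moved with them, with 9 of 14 markers higher and 4 lower without LPS and 12 of 13 higher and 0 lower with LPS in 3xGrk-/- cells, beside the same shares of all genes. *Csf1r* and *Fcgr1* are on both lists, so part of this joint movement is built in. *Csf1r* alone stood at 414 and 760 CPM in unstimulated WT and 3xGrk-/- cells and at 62.2 and 553 CPM with LPS. The part of macrophage-like cells in the differences of the PU.1 targets was not tested.

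**Figure D4:**
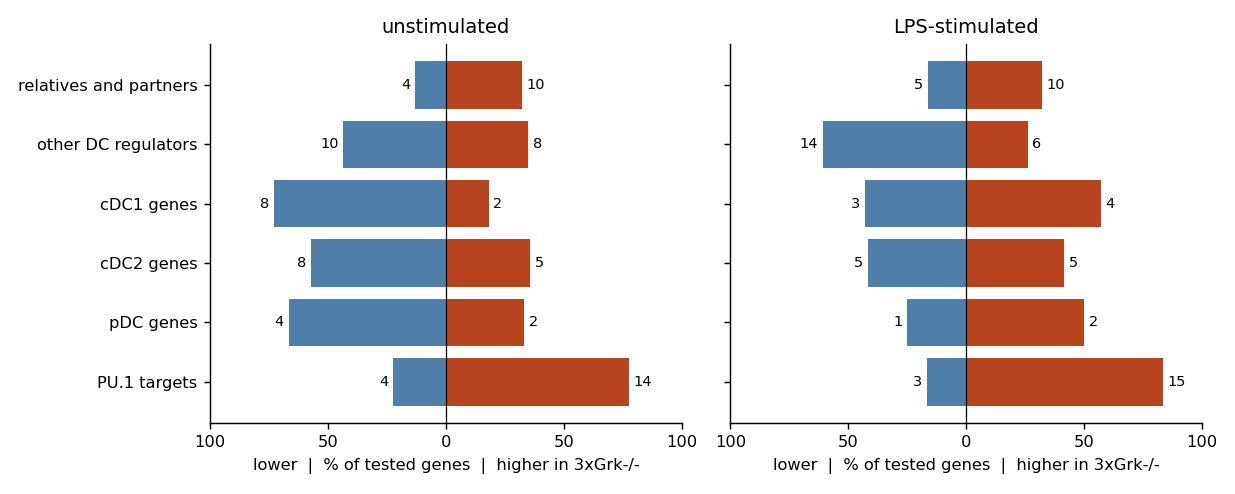
Share of the tested genes of each list that were called higher (red, right) or lower (blue, left) in 3xGrk-/- than in WT cells, without and with LPS, with the number of genes beside each bar. PU.1 targets are mostly higher in both stimulations, and cDC1 genes are mostly lower without LPS.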

How the data were processed

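RNA of WT and 3xGrk-/- BMDCs, unstimulated or LPS-stimulated, was sequenced by the authors from stranded mRNA libraries, 2 per group and 8 in all. Per the study's methods, reads were aligned to mm10 with STAR and counted on genes with featureCounts. The annotation release and the strand setting are not given in the sources used here. The values that the authors deposited are whole-number counts per gene without normalization, in 1 table for each stimulation, and 0 columns were left without a sample. Between 4713305 and 6933358 counts per library set the precision, and intervals cover the spread between libraries only. Within a group the libraries varied beyond counting noise (chi-square per gene of 1.59 to 9.02, or 1.16 to 1.92 as estimated from the median gene), so none was counted as a copy.

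Gene names, positions and exon lengths came from GENCODE M21 on GRCm38. Of 47937 gene IDs, 47310 matched without their version, and 0.0468% of the counts lay on the others. Promoter sequences are those of RefSeq on GRCm38.p6.

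The tests were run in edgeR 4.0.16 on R 4.3.3, with DESeq2 1.42.0 and limma 3.58.1 for alternatives, and tables and plots were made in Python 3.11.15. Genotypes were compared within each table (TMM scaling, filterByExpr, glmQLFit and glmQLFTest, all genes tested, Benjamini-Hochberg adjustment, calls at an adjusted p under 0.05), and LPS responses and the interaction came from 1 fit of all 8 libraries. CPM are scaled by TMM over the 8 libraries. To obtain a standard error, the log2 fold change without edgeR's prior count was divided by the root of the F statistic. Where neither library of a group had over 3 counts, the gene was set to that floor. The main edgeR fit of each comparison, but none of the alternatives, was tested on simulated data. Replicate numbers did not pair the libraries: deviations of same-numbered libraries correlated between -0.0654 and 0.0718. The alternatives were DESeq2, RLE factors, library sizes, other count filters, 1 library left out, a replicate block, a fixed spread, *Gm42418* left out (it overlaps ribosomal RNA), other sets of libraries in the fit and limma-voom.

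The genes named are the 9 factors, the 2 genes nearest to each in pattern (mean log2 CPM of at least 3), the targeted *Grk* genes, and up to 4 genes per list and comparison with the largest change among those called. Markers that made up a sum and genes that went the other way are named too. The factors and the lists were chosen with earlier results of these data known.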

Additional observations from a re-analysis of the deposited data

Results flagged for a closer look

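For 8 of the 9 factors the effect of the genotype differed between LPS-stimulated and unstimulated cells by the interaction term of edgeR's quasi-likelihood fit to all 8 libraries. Given as the log2 fold change of 3xGrk-/- over WT with LPS minus that without LPS, the difference was 2.53 for *Klf4*, 1.56 for *Spib*, 0.57 for *Spi1*, -1.41 for *Irf8*, -0.68 for *Irf4*, -0.45 for *Batf3*, -0.33 for *Bcl6* and -0.23 for *Id2*. The adjusted p ran from 1.01e-15 for *Irf8* to 0.0361 for *Bcl6*, and those of *Bcl6* and *Id2* (0.0152) were the closest to the threshold. Over all 12541 genes tested, 32.5% were called for this interaction, 16.5% higher and 16% lower. With a BCV of 0.4 set for every gene, edgeR's likelihood ratio test called 0 of the 9 factors, and DESeq2 called 7. With 2 libraries per group, no group was large enough to be searched for single libraries far from the others.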

How the results depend on the processing

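Of 621 values recomputed for the 9 factors under the alternatives, 549 kept their direction and their side of the threshold, 52 lost their call, 1 gained one in the same direction (*Id2* with LPS, -0.16 with library sizes as the scaling, adjusted p = 0.0343) and 19 changed sign. The fixed BCV of 0.4 moved the number of factors called most, from 7 to 0 for the genotypes without LPS, from 8 to 2 with LPS, from 8 to 3 for the response in WT (*Spib*, *Klf4* and *Irf8*), from 6 to 1 for the response in 3xGrk-/- (*Spib*) and from 8 to 0 for the interaction, and 31 of the 52 lost calls came from it. With any 1 library left out, 6 to 7, 8, 7 to 8, 5 to 6 and 6 to 8 factors were called in the same order, the lone library of an arm being taken to vary like the others. The fit with the replicate block called 7, 8, 8, 6 and 8 factors, as did the fit without it. Libraries with the same number share only that number, so this is no pairing of samples. DESeq2 called 6, 8, 7, 6 and 7.

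All changes of sign were in values that had not been called, and 1 of them was called after it (the LPS response of *Zbtb46* in WT with library sizes, adjusted p = 0.0234). *Batf3* without LPS turned to -0.0329 with library sizes and ranged from -0.0161 to 0.11 with a library left out. *Spi1* without LPS turned to -0.0841 with library sizes, -0.0098 with at least 10 counts in every library, -0.0017 with the replicate block, -0.0020 with the fixed BCV and -0.0002 in the fit of all 8 libraries, and ranged from -0.0356 to 0.0321. With library sizes the LPS response of *Zbtb46* turned to -0.18 in WT and -0.16 in 3xGrk-/- and that of *Bcl6* in 3xGrk-/- to -0.21, all relative to a median of all genes at -0.23. With a library left out, *Zbtb46* ranged from -0.0071 to 0.0821 for the response in WT and from -0.0395 to 0.0781 for the interaction, and *Bcl6* from -0.0441 to 0.0726 for the response in 3xGrk-/-. With library sizes the calls of *Bcl6* in WT and of *Id2* in 3xGrk-/- for LPS were lost (adjusted p = 0.190 and 0.185), and the *Id2* interaction was lost without any of 3 libraries (highest adjusted p = 0.160). Among the lists, 13 to 14 PU.1 targets were called higher without and 15 with LPS in all alternatives but the fixed BCV, which gave 1 and 8. Depth limits *Spib* and *Klf4* in LPS-stimulated WT cells most. The cause of these shifts was not tested.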

Other observations

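Ratios of other pairs of factors were taken within a library, per length. *Batf3* stood at 1.10 to 1.26 times *Irf8* in unstimulated WT and at 0.663 to 0.708 times in unstimulated 3xGrk-/- libraries, but with LPS at 0.419 to 0.437 times in WT and 0.477 to 0.503 times in 3xGrk-/- libraries, so that the order of the genotypes was the opposite with LPS, as it was for *Irf8* alone. *Id2* stood at 9.56 to 10.9 times *Zbtb46* in unstimulated WT and at 14.8 to 15.6 times in unstimulated 3xGrk-/- libraries, and at 14.2 to 14.5 and 17.8 to 18.2 times with LPS. *Klf4* relative to *Zbtb46* was 0.427 to 0.434 in unstimulated WT and 0.413 to 0.443 in unstimulated 3xGrk-/- libraries, which overlap, and 0.0537 to 0.0821 and 0.356 to 0.421 with LPS. These ratios were chosen among the 9 factors with their levels known and carry no test.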
